A study of Mus musculus with 7 samples.

Results

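Tandem strong CTCF peaks are pairs of strongly bound CTCF sites that lie side by side on the same chromosome, and 952 such peaks, in 476 pairs, were found in the livers of female mice. They were chosen by the measured CTCF values themselves: a peak had to be autosomal, to have a fold enrichment of at least 10, and to have another such peak with its summit, the position of highest signal, within 3 kb. Of 67010 autosomal CTCF peaks, 22227 had a fold of at least 10, and the 952 members were 4.28% of those. The other 21275 strong peaks, called single here, had no strong neighbour within 3 kb. Because fold and spacing selected the members, both are given below as descriptions with no test.

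The samples were livers of female CD-1 mice, strain Crl:CD1(ICR), at 8 weeks of age, with no treatment or genetic change named in the labels. Liver nuclei were crosslinked and precipitated for CTCF in 4 libraries and, in 3 others, for Rad21, which is a subunit of cohesin. The peak lists hold 68667 CTCF and 68656 Rad21 peaks on the mm9 genome and carry 1 set of values for each antibody, so that no spread between mice could be computed. All intervals below are 95% intervals over peaks or pairs, which cover counting error only, and peaks of 1 pair share their surroundings and are not independent. Whole liver holds several cell types, and no marker of any cell type is measured by these lists.

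CTCF is a zinc-finger protein that binds a long, asymmetric DNA motif, so that every bound site has a direction. Cohesin is a ring-shaped complex that is thought to extrude loops of chromatin until it meets CTCF, and it accumulates mostly at sites whose motifs point towards the inside of the loop. Sites bound next to each other are known from insulators and domain borders, where motifs of the same or of opposite direction can follow each other closely.

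The direction of each peak was read from a motif matrix of 20 bp that was learned from the 1000 single strong peaks of highest fold, and the most frequent bases of that matrix spelled TGGCCACCAGGGGGCGCCAG. A peak was said to have a motif where its best match within 100 bp of the summit exceeded 14.2 bits, a score reached by 1% of windows taken from beside the peaks. The pairs of the highest score for the lower-scoring of their motifs are printed for each of 3 arrangements to show what same-direction, convergent and divergent pairs look like at the base level. Each sequence is the mm9 reference from 5′ to 3′ along the strand of its match, with the matched bases in capitals, and the convergent arrangement has the left match on the plus strand and the right match on the minus strand, so that both point inwards.
Tnni1 left (same, chr1:137684551-137684580, minus strand, 21.9 bits): tctagTTGCCACTAGAGGGCAGTGTggagc
Tnni1 right (same, chr1:137686577-137686606, minus strand, 22.4 bits): aatgcTGTCCACCAGGGGGCGCAGTtttgc
9430024E24Rik left (same, chr2:33590502-33590531, minus strand, 22.0 bits): cgaagCAGCCACCAGGTGGCAGTGTtgtgc
9430024E24Rik right (same, chr2:33592376-33592405, minus strand, 22.3 bits): ggctgTGTCCACCAGAGGGCACCCTgccct
Prex1 left (same, chr2:166389578-166389607, minus strand, 24.0 bits): aactaTGACCACCAGGTGGCGCTGTgggca
Prex1 right (same, chr2:166390170-166390199, minus strand, 22.4 bits): cagccTGTCCAGCAGAGGGCACCAGggacc
Etv4 left (convergent, chr11:101674748-101674777, plus strand, 22.3 bits): tgttgCCGCCACCAGGTGGCAGTGTtggca
Etv4 right (convergent, chr11:101676279-101676308, minus strand, 21.3 bits): tccctCCACCACTAGGGGGCGCGCTctact
Smad5 left (convergent, chr13:56857306-56857335, plus strand, 22.0 bits): tccctGGGCCAGGAGGGGGCGCTGTtgaag
Smad5 right (convergent, chr13:56860011-56860040, minus strand, 21.7 bits): gacacTGACCACAAGGGGGCGCTCAcccca
Gm11927 left (convergent, chr4:32142275-32142304, plus strand, 20.4 bits): ttctcTAGCCACTAGATGGCAGTACaagca
Gm11927 right (convergent, chr4:32144212-32144241, minus strand, 20.6 bits): tatgaTGACCACTAGATGGCAGTCTagaag
Otos left (divergent, chr1:94544533-94544562, minus strand, 23.2 bits): atggaTGGACAGCAGGGGGCGCCAGatacc
Otos right (divergent, chr1:94545524-94545553, plus strand, 23.4 bits): tgagaTGGCCTCCAGGGGGCGCCATgctca
Tff3 left (divergent, chr17:31256582-31256611, minus strand, 21.9 bits): tccagTGACCACTAGAGGGCGCGCTtaggc
Tff3 right (divergent, chr17:31259064-31259093, plus strand, 22.7 bits): ccaggCTGCCAGCAGAGGGCGGTGTggggc
1700110K17Rik left (divergent, chr9:40138404-40138433, minus strand, 23.2 bits): gcctgTGGCCACTAGGGGGAGCCAGgacat
1700110K17Rik right (divergent, chr9:40141410-40141439, plus strand, 23.1 bits): gctacTGACCAGCAGGGGGCAGTAGtgccg

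The same-direction pair near Prex1, a guanine nucleotide exchange factor for Rac, had its summits 597 bp apart, CTCF folds of 11.9 and 15.1 and Rad21 folds of 9.33 and 18.5. In an intron of Tnni1, which encodes the troponin I of slow muscle, the CTCF folds were 11.2 and 13.0 and the Rad21 folds 4.57 and 6.06. In an intron of Fam125b, printed above by its nearest TSS (9430024E24Rik), the order of the factors was opposed, with CTCF folds of 11.8 and 15.5 and Rad21 folds of 12.5 and 5.94. The divergent pair at Otos, which encodes otospiralin of the inner ear, was 1016 bp wide, and the transcription start site (TSS) of Otos lay between its summits. Its left peak was in an exon with a CTCF fold of 17.3 and its right peak was upstream of the TSS with one of 10.6. The divergent pair near Tff3, a trefoil factor of mucus, had CTCF folds of 11.5 and 15.5 and Rad21 folds of 9.84 and 11.7, and the convergent pair near Smad5, a mediator of BMP signalling, had CTCF folds of 15.7 and 10.8 and Rad21 folds of 6.99 and 7.34.

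The tandem pairs were 450 to 2990 bp wide between summits, with a median of 1628 bp (interval 1566 to 1736 bp, n = 476 pairs) and quartiles of 1136 and 2252 bp. No strong peak had more than 1 strong neighbour within 3 kb: there were 476 groups of 2 peaks and 0 of 3 or more. The number of pairs rose from 2 with summits at most 500 bp apart to 79 between 500 and 1000 bp and 119 between 1000 and 1500 bp, and then fell to 111, 85 and 80 in the next 3 steps of 500 bp. The widest pair lay in Hnf4a, and the next neighbours outside the limit were 3003 bp apart. The weakest member had a fold of 10.001 and the strongest peak below the minimum one of 9.9986.

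**Figure D1:**
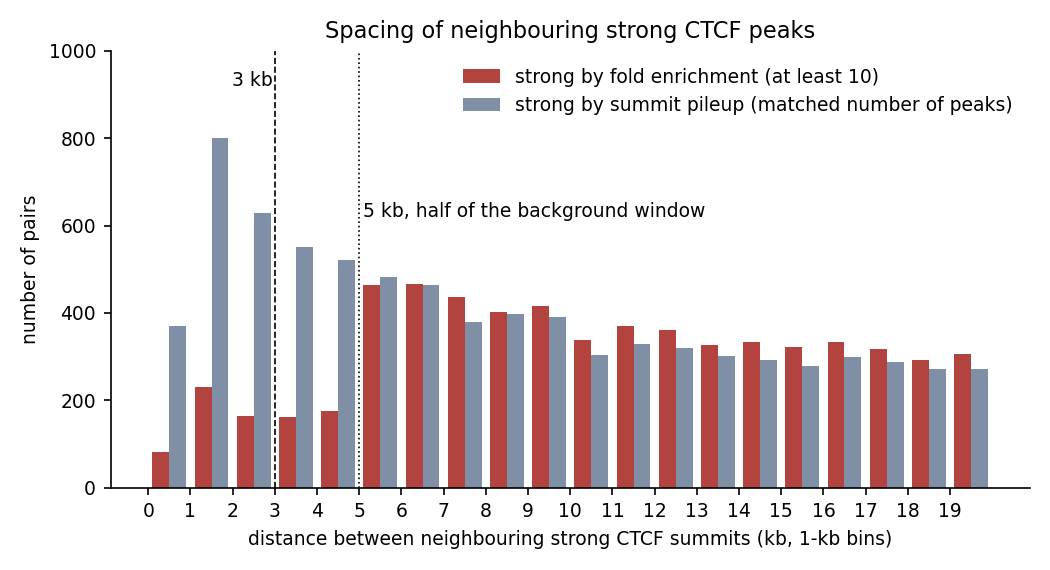
Number of pairs of neighbouring strong autosomal CTCF summits (y axis) against the distance between them in 1-kb bins (x axis), for peaks called strong by fold enrichment (red) or, at a nearly equal number of peaks, by summit pileup (grey-blue). By fold, the count rises from 175 pairs at 4 to 5 kb to 463 at 5 to 6 kb; by pileup it goes from 521 to 483.

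The spacing of strong peaks changed at 5 kb when strength was measured by fold. Neighbouring strong peaks numbered 162 pairs per kb of distance on average between 0 and 5 kb and 437 per kb between 5 and 10 kb, with a step from 175 pairs at 4 to 5 kb to 463 pairs at 5 to 6 kb. The fold in these lists is the pileup of fragments at the summit plus 1, divided by the local background plus 1. From the fold and its p-value the whole-number pileup and the background could be recovered for 68663 of the 68667 CTCF peaks (951 of the members). Backgrounds above the genome-wide floor of 6.28 fragments, except the highest, were then checked. At a fragment length of 197 bp, chosen to fit best, each equalled a whole number of reads in 10 kb around the summit (within 0.1 read). In the peaks checked, a strong neighbour within 5 kb therefore stands in the denominator of the fold. Members had a median background of 22.7 fragments (22.1 to 23.3) and single strong peaks one of 12.3 (12.2 to 12.4), and only 6 of 952 members (0.630%) were at the floor against 6.12% of single strong peaks.

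The minimum fold asks for a higher pileup where the background is higher, as it is beside a strong neighbour, so the heights of the classes are set in part by the rule. The median summit pileup was 301 fragments in members (294 to 311, n = 951) and 231 in single strong peaks (228 to 233), while the median fold was 12.3 (12.2 to 12.5) against 16.7 (16.6 to 16.8). When strong peaks were defined by a pileup of at least 116 fragments, which gave 22288 autosomal peaks, 3426 of them were within 3 kb of another, in 1799 neighbouring pairs, and 140 groups held 3 or more peaks. Of the 952 members, 940 (98.7%) belonged to that larger set, where they were 27.4%, and 1500 of its other 2486 peaks had a fold under 10. The spacing of the pileup pairs had no step at 5 kb: 521 pairs were 4 to 5 kb and 483 were 5 to 6 kb apart. The rule also limits further CTCF peaks around the members, since their reads enter the same background, and the following shares are a description of that: 5.15% of members (3.92 to 6.74) had a further CTCF peak of fold under 10 within 3 kb, against 15.01% of single strong peaks (14.5 to 15.5).

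The peaks of a pair were close to equal in strength, a property that the rule itself favours. The stronger peak had a median of 1.18 times the fold of the weaker (1.16 to 1.20, quartiles 1.08 and 1.33), and 147 pairs (30.9%) were within a ratio of 1.1 while 2 pairs reached a ratio of 2. Folds of members ran from 10.001 to 22.9. The folds of a pair summed to a median of 25.7 and at most 34.8, where a single peak that held every read of its window would approach 50.8. By pileup the median ratio was 1.19 (1.16 to 1.21, n = 475 pairs), and 3 pairs reached 2. At 3 to 5 kb, still inside the background window, neighbouring strong peaks had a median pileup ratio of 1.19 (1.16 to 1.22, n = 336), and at 5 to 10 kb one of 1.59. The pileups of left and right peaks had a Spearman rho of 0.719 across the tandem pairs and of 0.147 across the pairs 5 to 10 kb apart (n = 2183). These are descriptions across pairs that share 1 merged list of 4 libraries and, under 5 kb, their background. In pairs chosen by pileup, which limits both peaks but not their ratio, the pileup ratio within 3 kb was 1.55 and the rho was 0.0325.

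**Figure D2:**
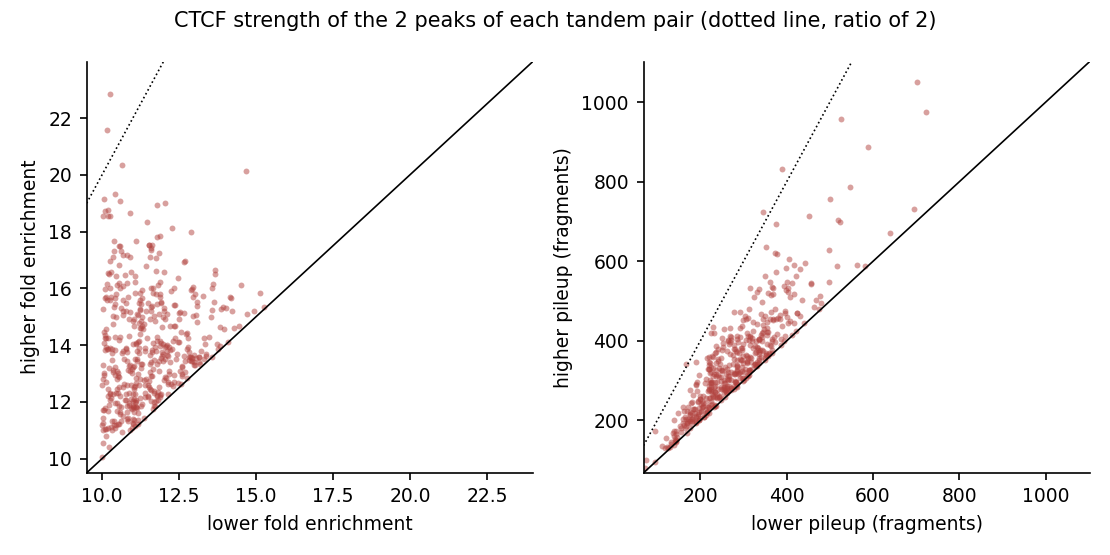
CTCF strength of the peaks of each tandem pair: the higher value (y axis) against the lower (x axis) for fold enrichment (left, 476 pairs) and summit pileup in fragments (right, 475 pairs), with each point a pair. The solid line marks equal values and the dotted line a ratio of 2, which 2 pairs pass by fold and 3 by pileup.

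The 6 pairs whose weaker peak was strongest lay at or in Ext2, Upf3a, Tasp1 and Pde11a and near 2 non-coding transcripts. The matches of 5 of them are printed because they show that the strongest pairs hold different best matches, in capitals, with the strand and the mm9 position of the 30 bases. The left match of the 7SK pair, at 13.8 bits, is below the threshold and does not count as a motif.
4930555K19Rik left (chr15:40994568-40994597, plus strand, 19.5 bits): tcttcTAGCCACAAGAGGGCAGCAAcactg
4930555K19Rik right (chr15:40995319-40995348, plus strand, 18.9 bits): ttattTAGCCACTAGGTGGTGCTGCtcttt
Pde11a left (chr2:75953005-75953034, minus strand, 16.4 bits): gtattCAGCCACTGGGAGGCGCTGTcccca
Pde11a right (chr2:75953944-75953973, plus strand, 17.6 bits): agcctCTGCCACTAGGTGGTGCTCAgtcag
Ext2 left (chr2:93662740-93662769, minus strand, 21.8 bits): cctccTGTCCAGCAGGGGGCGCGGCgctac
Ext2 right (chr2:93663910-93663939, minus strand, 17.2 bits): aacaaTATCCACGAGGTGGCGCTAAagtac
Upf3a left (chr8:13785522-13785551, minus strand, 17.97 bits): ggcccGCGCCTGTAGGGGGCAGCGCggcag
Upf3a right (chr8:13786195-13786224, minus strand, 20.2 bits): atcgtGCGCCGGCAGGGGGCGCAGTtgctc
7SK copy left (chr8:97226915-97226944, minus strand, 13.8 bits): atggcCTGCCGGCAGGGGATGCTGTgagca
7SK copy right (chr8:97228104-97228133, plus strand, 21.1 bits): acgaaTGACCGGCAGGTGGCACTCGccact

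Ext2 encodes a glycosyltransferase of heparan sulfate synthesis, and its pair started at the promoter: peak chr2:93662421-93662982, with its summit 17 bp upstream of the TSS, had a fold of 14.7 and a pileup of 723 fragments, and the right peak, chr2:93663697-93664108, had a fold of 20.1 and a pileup of 975. Both motifs pointed left, towards the gene. Rad21 was higher at the right peak, with a fold of 16.5 against 6.94. The pair at Upf3a, a gene of nonsense-mediated mRNA decay, lay on both sides of the TSS, at chr8:13785308-13785788 (fold 15.8, intergenic) and chr8:13785964-13786436 (fold 15.1, in coding sequence), and here too Rad21 was higher at the right peak, with a fold of 11.6 against 4.58. The intergenic pair at chr8:97226709-97227170 and chr8:97227947-97228332, whose nearest annotated TSS is that of a 7SK RNA copy, had almost equal CTCF folds of 15.3 and 15.3 and Rad21 folds of 14.6 and 13.0. This pair and the Upf3a pair were the 2 pairs in which both peaks had a fold of at least 15. In an intron of Pde11a, a cyclic nucleotide phosphodiesterase gene, divergent motifs of 16.4 and 17.6 bits lay under peaks of fold 14.7 and 15.1, with Rad21 folds of 8.41 and 4.87. Upstream of 4930555K19Rik the same-direction peaks had CTCF folds of 14.5 and 16.1 and Rad21 folds of 10.2 and 11.3.

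The closest pair of all, 450 bp wide, lay in an intron of Tasp1, which encodes the protease taspase. This pair enclosed a tandem repeat between its summits. Its peaks, chr2:139815238-139815596 and chr2:139815675-139816128, had folds of 15.2 and 14.9 and pileups of 201 and 198 fragments. A 30-bp unit occurs in 12 exact copies within chr2:139815419-139815832 on the plus strand, with the left summit 5 bp outside the first and the right summit 32 bp outside the last. The copies are not an unbroken array: the span is 414 bp, and over the whole stretch from the left to the right peak 56.7% of bases equalled the base 30 bp further on. The unit is printed because its first 20 bases, in capitals, were the best match of both peaks, at 3.37 bits and far below the motif threshold.
Tasp1 repeat unit (chr2:139815419-139815448, plus strand): TAGCCAGCAGGGGTGCAGTGtttccagtgt
The right peak overlapped a Rad21 peak of fold 4.15 and the left peak overlapped none. The authors kept uniquely mapped reads, and the part of the repeat in the position and height of this pair was not tested.

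Compared without gaps, partners rarely resembled each other in sequence, but likeness broken by gaps or larger shifts was not measured. In an ungapped comparison of the 200 bp around the motifs or summits, with shifts of up to 20 bp on both strands, the median best identity was 33.5% in tandem pairs (33.0 to 33.5) and 33.0% in pairs 5 to 10 kb apart. The Tasp1 pair, whose peaks reach into the same repeat, scored 35.5%. None of the 476 tandem pairs reached 60% identity, a count whose Wilson interval reaches 0.801%, and 3 of 2184 pairs at 5 to 10 kb did. Tandem pairs of the highest identity, at 53.0%, 42.5% and 42.0%, are shown so that the likeness of their best matches can be read, and 4 of the 6 matches were below the motif threshold. A pair near Gm11195 and Slc46a1 tied with the last of them at 42.0% and is not shown.
1110021L09Rik left (chr10:23532143-23532172, plus strand, 10.8 bits): acagtAAACCACAAGGTGGTGCTTAtcctc
1110021L09Rik right (chr10:23535145-23535174, plus strand, 19.3 bits): tggctATGCCACAAGGTGGCACTATaccct
Gnb2l1 left (chr11:48602303-48602332, plus strand, 18.4 bits): caaagCGGACACAAGGTGGCAGCACtaagc
Gnb2l1 right (chr11:48603886-48603915, plus strand, 12.1 bits): ctaagCGGACGCGGGGTGGCAGCACtgagc
Dnahc17 left (chr11:117964417-117964446, minus strand, 11.7 bits): acaccATGCCACACGGGGGAGCACCactgt
Dnahc17 right (chr11:117965538-117965567, minus strand, 11.7 bits): gcactATGCCACACGGGGGAGCACCactgt

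The pair of highest identity lay in an intron of Dnahc17, an axonemal dynein gene, 1136 bp wide, with CTCF pileups of 887 and 588 fragments, and both of its peaks had the same 20 bases at 11.7 bits. The others lay 9.94 to 11.5 kb from the TSS of Gnb2l1, the gene of the ribosomal scaffold protein RACK1, and in an intron of 1110021L09Rik.

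After the Tasp1 pair, the closest pairs were 478 bp wide in an intron of Fam184b and 522 bp wide 4.01 kb upstream of Slc45a1, a sugar transporter gene. The Fam184b pair had CTCF folds of 15.1 and 12.5 and Rad21 folds of 10.6 and 9.95. In the Slc45a1 pair, with folds of 16.0 and 11.7, a single Rad21 peak of fold 19.2 covered both CTCF peaks. Summed fold was highest in the Ext2 pair, at a pair on chromosome 18 (chr18:82886100-82886486 and chr18:82886661-82887170), at Arpc3 and at an intergenic pair at chr13:75935254-75935713 (fold 19.02) and chr13:75936441-75936856 (fold 12.0). The chromosome 18 pair and the pair at Arpc3, which encodes a subunit of the actin-nucleating Arp2/3 complex, also had the largest ratios. At Arpc3 the left peak, 69 bp upstream of the TSS, had a fold of 22.9 and the right peak one of 10.3, a ratio of 2.23. On chromosome 18 the folds were 10.2 and 21.6, a ratio of 2.12. The third ratio, of 1.91, belonged to a pair near Gm16947 and Adam6b with low pileups of 96 and 173 fragments and folds of 10.6 and 20.4.

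With strong peaks chosen by fold, a motif was present at more members than single strong peaks. It was found at 787 of 952 members (82.7%, 80.1 to 84.9) and at 74.1% of the 20275 single strong peaks that had not been used to learn the matrix (73.5 to 74.7). Since the members were taller, the shares were also read within ranges of pileup, where they were 77.5% against 64.0% below 150 fragments, 80.3% against 73.6% at 150 to 250, 84.3% against 81.5% at 250 to 350 and 83.3% against 79.9% above that. The intervals of the classes lay apart in the range of 150 to 250 fragments (74.99 to 84.7 against 72.5 to 74.7) and overlapped in the other 3. Where strong peaks were chosen by pileup, the share was 74.8% of tandem (73.3 to 76.2) and 73.5% of single peaks (72.9 to 74.2), with overlapping intervals. In 334 pairs (70.2%, 65.9 to 74.1) both peaks had a motif, in 119 pairs 1 peak had one and in 23 neither. The taller peak of a pair had the higher motif score in 258 of 470 pairs (54.9%, 50.4 to 59.3), and where 1 peak had the motif it was the one of higher fold in 56 of 119 pairs (47.1%, 38.3 to 56.0). The rule holds the strengths of a pair close together, so these shares cannot show how motif and strength are related. A peak with 2 motifs within 100 bp of its summit was found at 6 members (0.630%, 0.289 to 1.37), at 1.49% of single strong peaks (1.34 to 1.66) and at 0.624% of all autosomal peaks. The last 2 shares include the peaks used to learn the matrix.

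Same-direction motifs were the commonest arrangement in tandem pairs, and convergent motifs the rarest. Pairs with both motifs on plus or both on minus count as same-direction, so random strands would also make that class the largest. Of the 334 pairs with a motif at both peaks, 191 had the same direction (57.2%, 51.8 to 62.4), 100 were divergent (29.9%, 25.3 to 35.1) and 43 were convergent (12.9%, 9.70 to 16.9). The share of same-direction pairs was 66.7% (53.4 to 77.8, n = 54) up to 1 kb, 59.1% (51.2 to 66.5, n = 154) between 1 and 2 kb and 50.8% (42.2 to 59.4, n = 126) between 2 and 3 kb, with intervals that overlap. In pairs chosen by pileup the same steps gave 59.5% (n = 210), 60.3% (n = 459) and 58.3% (n = 381), with no such decline. Neighbouring strong peaks 5 to 10 kb apart had the same direction in 50.9% (48.2 to 53.6, n = 1309), and those 10 to 50 kb apart in 48.9% (47.5 to 50.2, n = 5313). Convergent motifs made up 14.9% (13.1 to 16.9) and 20.8% (19.7 to 21.9) of these. The same-direction and convergent intervals of tandem pairs overlapped those at 5 to 10 kb. They lay apart from those at 10 to 50 kb. Read by pileup, which takes in far more pairs, the arrangement within 3 kb was 59.4% same-direction (56.4 to 62.4, n = 1050), 25.5% divergent and 15.05% convergent. The same-direction share of pileup pairs 5 to 10 kb apart was 50.7% (47.8 to 53.5), an interval below that within 3 kb. Of the same-direction pairs, 84 of 191 were on the plus strand (44.0%, 37.1 to 51.1). Convergent pairs had a median spacing of 2045 bp (1559 to 2426), divergent pairs one of 1752 bp and same-direction pairs one of 1635 bp, with overlapping intervals.

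**Figure D3:**
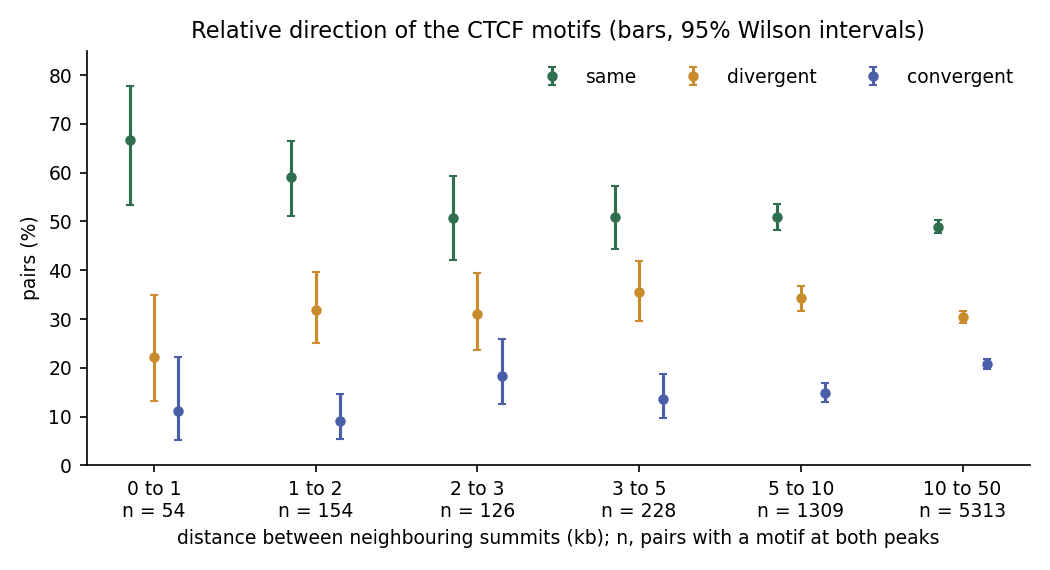
Share of pairs with same-direction (green), divergent (orange) and convergent (blue) motifs (y axis, %) by the distance between neighbouring strong summits (x axis, kb), with 95% Wilson intervals as bars and the number of pairs under each class. Same-direction pairs go from 66.7% up to 1 kb to 48.9% at 10 to 50 kb, and convergent pairs from 11.1% (6 of 54) to 20.8%; in pairs chosen by pileup, not drawn here, the shares up to 1 kb are 59.5% and 18.1%.

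Nearly every member was shared with cohesin, as were single strong peaks. Of the 952 members, 927 (97.4%, 96.2 to 98.2) shared 1 bp or more with a Rad21 peak. The background for this count is 97.5% of single strong peaks, and 73.8% of all autosomal CTCF peaks. Where strong peaks were chosen by pileup, the shares were 92.8% of tandem (91.8 to 93.6) and 98.1% of single peaks (97.9 to 98.3), with intervals apart. Both peaks overlapped Rad21 in 452 pairs (94.96%, 92.6 to 96.6), 1 peak in 23 pairs and neither in 1 pair, near Gm10858. A single Rad21 peak covered both CTCF peaks in 5 pairs, 522 to 896 bp wide. Rad21 had a median pileup of 130 fragments at members (120 to 142, n = 927) and 118 at single strong peaks (116 to 119), while its median fold was 9.45 against 12.3. The Rad21 fold uses a 10-kb background in the same way as that of CTCF.

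The 25 members without Rad21 had a median fold of 11.5 and a median CTCF pileup of 181 fragments, and 18 of them had a motif. Below 150 fragments Rad21 overlapped 30 of 40 members (75%, 59.8 to 85.8) and 92.2% of single strong peaks (91.4 to 92.8), and above 150 fragments it overlapped at least 97.6% of either class in each range. These shares leave out the 1000 single peaks used to learn the matrix. The 5 strongest members without Rad21 were the left Tasp1 peak and peaks near Gm20424 (fold 14.0), Trim29 (13.8), Arrdc4 (13.1) and Gpr151 on chromosome 18 (12.9). Their 5 partners all overlapped Rad21. At the convergent pair 164 to 165 kb from Arrdc4, an arrestin-family gene, the left peak had a CTCF fold of 15.4 and the highest Rad21 fold of these partners, at 27.3, next to a right peak of CTCF fold 13.1 with no Rad21 peak.

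Rad21, which the rule did not use, varied within pairs. In the 447 pairs with separate Rad21 peaks, the higher Rad21 pileup was a median of 1.86 times the lower (1.75 to 1.98), and it was at least 2 times the lower in 199 pairs (44.5%, 39.98 to 49.2) and at least 4 times in 58 (13.0%, 10.2 to 16.4). The spread of CTCF within pairs is limited by the rule and is not compared with this. In pairs chosen by pileup the CTCF pileups differed by 2 times or more in 542 of 1799 (30.1%) and the Rad21 pileups in 719 of 1492 (48.2%, 45.7 to 50.7). The largest ratio, 12.2, was that of the divergent pair in Gramd1b, a gene of sterol transport, where CTCF pileups of 546 and 457 fragments stood beside Rad21 pileups of 512 and 42. The convergent pair upstream of Etv4, an ETS-family transcription factor gene, followed with CTCF pileups of 429 and 347 and Rad21 pileups of 477 and 44. At the convergent pair near Gm11927 the Rad21 pileups were 352 and 51. Where the CTCF pileups were within a ratio of 1.25, the median Rad21 ratio was 1.80 in tandem pairs (1.64 to 1.96, n = 269) and 1.75 in pairs 5 to 10 kb apart (1.65 to 1.87, n = 560), with overlapping intervals.

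The peak with more CTCF was also the one with more Rad21 in 270 of 441 pairs by pileup (61.2%, 56.6 to 65.7). Across 446 pairs the log2 ratio of left to right Rad21 pileup had a Pearson r of 0.270 and a Spearman rho of 0.254 with that of CTCF. The points share the pooled libraries of each antibody. In pairs 5 to 10 kb apart the order was the same in 70.2% (68.2 to 72.2). In pairs within 3 kb chosen by pileup it was the same in 71.7% (69.3 to 73.9), an interval that lies above that of the tandem pairs. The CTCF ratios were larger in both of these sets. At CTCF pileup ratios below 1.1, 1.1 to 1.25 and 1.25 to 1.5, the shares were 56.2%, 61.5% and 63.4% in tandem pairs. In pairs chosen by pileup they were 57.5%, 58.8% and 66.1%, with overlapping intervals. At ratios of 1.5 and above they were 66.7% (53.4 to 77.8, n = 54) and 81.3% (78.4 to 83.9, n = 760), with intervals apart.

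**Figure D4:**
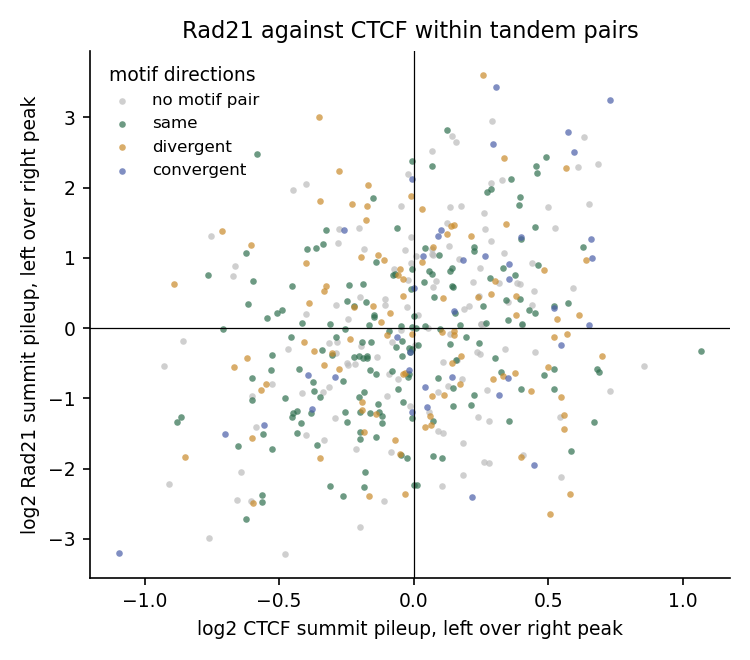
Log2 ratio of left to right Rad21 summit pileup (y axis) against that of CTCF (x axis) for 446 tandem pairs with separate Rad21 peaks, each point a pair, coloured by the relative direction of its motifs. The points have a Spearman rho of 0.254, and the width of the cloud along the x axis is limited by the rule that chose the pairs.

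Rad21 signal lay to 1 side of the motif, in members as in single strong peaks. The Rad21 summit was downstream of the motif's centre, that is towards the GGGGGC end, in 528 of 769 members with both (68.7%, 65.3 to 71.8) and in 69.2% of single strong peaks (68.4 to 69.9), by a median of 17.0 and 16.0 bp. The CTCF summit lay to the other side, with a median of -9 bp in both classes. The partner lies downstream of both motifs in a convergent pair and upstream of both in a divergent pair. The shares on the partner's side therefore restate this offset and are no separate result. They were 53 of 78 peaks of convergent pairs (67.9%, 56.96 to 77.3) and 67 of 196 peaks of divergent pairs (34.2%, 27.9 to 41.1). In same-direction pairs the Rad21 summit was on the partner's side at 175 of 356 peaks (49.2%, 44.0 to 54.3).

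In same-direction tandem pairs the Rad21 pileup was not detectably higher at the downstream partner. It was the higher of the pair in 92 of 177 pairs (52.0%, 44.7 to 59.2), with a median log2 difference of 0.03 (-0.13 to 0.36), split into 0.34 for the 79 pairs on the plus strand and -0.16 for the 98 on the minus strand. Same-direction neighbours 3 to 5 kb apart had a median of 0.48 (0.14 to 0.75, n = 112), those 5 to 10 kb apart 0.50 (0.37 to 0.69, n = 629) and those 10 to 50 kb apart 0.25 (0.18 to 0.34, n = 2439). The downstream partner was higher in 63.1% of pairs at 5 to 10 kb (59.3 to 66.8), an interval that just misses that of the tandem pairs, and in 56.3% at 10 to 50 kb (54.3 to 58.3), an interval that overlaps it. Among pairs within 3 kb that were chosen by pileup the difference was 0.04 (-0.08 to 0.22, n = 538), with the downstream partner higher in 51.3%. Taken per CTCF pileup, Rad21 was higher at the downstream partner in 54.8% of the tandem pairs (47.4 to 62.0), with a median log2 difference of 0.08 (-0.08 to 0.37). In the pairs chosen by pileup this ratio was higher downstream in 57.2% (53.0 to 61.4), with a median of 0.13 and an interval above 0 (0.05 to 0.23), and at 5 to 10 kb in 66.3% (62.5 to 69.9), with a median of 0.47. The intervals of both sets within 3 kb overlapped. Fragment lengths of 195 bp for Rad21 and 197 bp for CTCF, inferred from the recovered backgrounds, were shorter than the spacing of every pair. Whether signal at 1 peak adds to that of its partner was not tested.

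With strong peaks chosen by fold, members lay in intergenic sequence more often than single strong peaks and near a TSS less often. With GENCODE annotation of the same build, 534 of 952 members (56.1%, 52.9 to 59.2) were intergenic, 363 (38.1%) intronic and 55 (5.78%) exonic, against 49.5%, 41.5% and 9.05% of single strong peaks. A TSS lay within 1 kb of 113 members (11.9%, 9.97 to 14.1), where the background was 16.1% of single strong peaks (15.6 to 16.6) and 23.8% of all autosomal peaks. By range of pileup, again without the 1000 single peaks used to learn the matrix, the share near a TSS was 5% of members against 11.3% below 150 fragments and 9.45% against 13.1% at 150 to 250, with overlapping intervals. It was 8.70% (6.16 to 12.1) against 13.5% (12.6 to 14.5) at 250 to 350 and 18.3% (14.4 to 22.9) against 28.5% (27.1 to 29.9) above that, with intervals apart. For the intergenic share the intervals lay apart at 250 to 350 fragments, with 55.9% (50.7 to 61.1) against 48.1% (46.7 to 49.5), and overlapped in the other 3 ranges. The median distance to a TSS was 10886 bp (10026 to 12048) in members and 10521 bp (10230 to 10827) in single strong peaks, with overlapping intervals. These differences depended on the choice of strong peaks by fold. Chosen by pileup, 21.3% of tandem peaks (19.97 to 22.7) and 18.7% of single peaks (18.1 to 19.2) were within 1 kb of a TSS, so the order turned, and 49.8% (48.1 to 51.4) and 48.0% (47.3 to 48.8) were intergenic, with overlapping intervals.

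**Figure D5:**
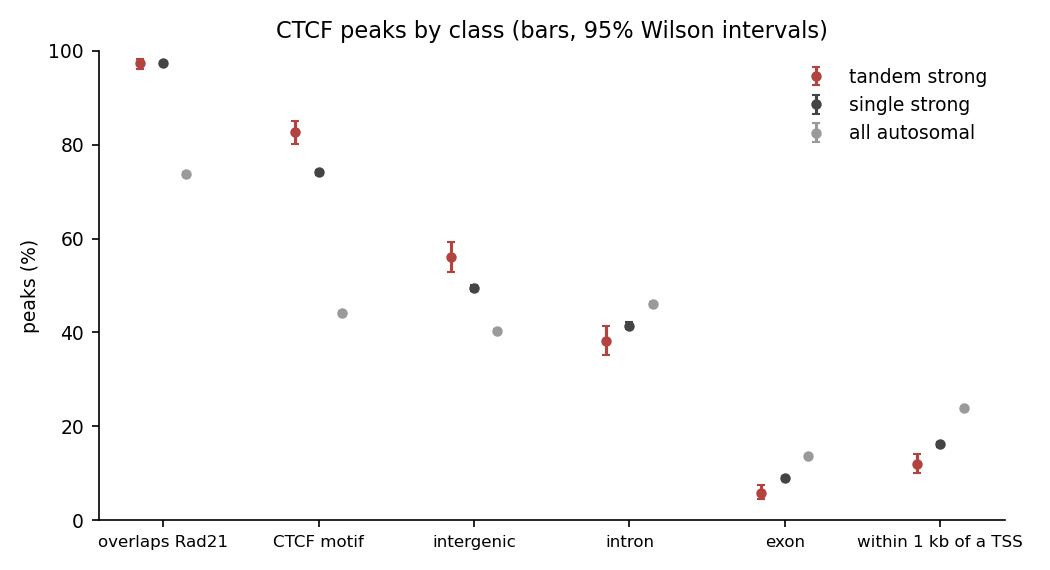
Share of peaks (y axis, %) that overlap Rad21, hold a motif, lie in intergenic, intronic or exonic sequence or lie within 1 kb of a TSS (x axis), for tandem strong peaks (red, n = 952), single strong peaks (dark grey, n = 21275, for motifs 20275) and all autosomal peaks (light grey, n = 67010), with 95% Wilson intervals as bars. Tandem and single peaks sit together for Rad21, at 97.4% and 97.5%, and apart for motifs, at 82.7% and 74.1%.

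As pairs, 251 of 476 (52.7%, 48.2 to 57.2) had both summits in intergenic sequence and 187 (39.3%) had both in the same gene. A TSS lay between the summits of 51 pairs (10.7%, 8.24 to 13.8), both summits were within 1 kb of a TSS in 19 pairs, and 243 pairs (51.1%) had neither summit within 10 kb of one. Pairs 5 to 10 kb apart, whose longer span leaves more room for a TSS, had one between the summits in 30.2%. The members made up 2.29% of strong peaks on chromosome 16 and 5.97% on chromosome 2, the lowest and highest of the 19 autosomes.

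A tandem pair lay within 10 kb of the body of 544 of 34653 autosomal genes, a background of 1.57%, and of 2.08% of protein-coding genes. Among lists of genes drawn up with earlier results of these data known, this held for 2 of 33 imprinted genes (Gnas and Phlda2), 1 of 42 hepatocyte genes (Hnf4a), 2 of 44 genes with sex-biased expression in liver or their regulators (Cux2 and Elovl3), 0 of 39 Hox genes and 0 of 16 genes of cohesin and CTCF. With the limit set at 3 divided by the number of genes, a count of 0 allows up to 7.69% of the Hox genes. For the cohesin and CTCF genes it allows up to 18.8%, so the lists were too short to be set against the background.

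These 5 pairs had same-direction motifs, as did 57.2% of all tandem pairs with a motif at both peaks, and 5 pairs are too few to be set apart from that share. The Hnf4a pair, chr2:163357638-163358043 and chr2:163360593-163361053, lay in an intron of this gene for a hepatocyte transcription factor, 4.92 and 1.93 kb upstream of an annotated Hnf4a TSS, with CTCF folds of 10.2 and 13.9 and Rad21 folds of 10.5 and 8.03. In Cux2, which encodes a transcription factor of female mouse liver, intronic peaks 2363 bp apart had CTCF folds of 12.5 and 11.0 and Rad21 folds of 7.10 and 5.83. The third pair reached from a UTR of Elovl3, a gene of very long chain fatty acid elongation, at chr19:46209710-46210161, to the TSS of the neighbouring homeobox gene Pitx3, at chr19:46211532-46212064, 52 bp upstream of it.

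The Elovl3 peak had a CTCF fold of 10.9 and a Rad21 fold of 15.5, and the Pitx3 peak had a CTCF fold of 11.9 and a Rad21 fold of 6.02. In Gnas, the imprinted gene of the stimulatory G protein, intronic peaks 1234 bp apart had CTCF folds of 11.8 and 13.3, CTCF pileups of 176 and 199 fragments, and Rad21 folds of 14.3 and 11.1. The pair 3.55 to 4.38 kb upstream of Phlda2, an imprinted gene that limits placental growth, was 828 bp wide with CTCF folds of 11.7 and 13.5 and Rad21 folds of 8.85 and 12.1. In these 5 pairs the CTCF folds were thus within a ratio of 1.36 of each other, and the higher Rad21 fold was at the peak of lower CTCF fold in 3 of them, Hnf4a, Elovl3 and Gnas. Over all tandem pairs with separate Rad21 peaks the peak of higher CTCF fold had the higher Rad21 fold in 278 of 447 (62.2%, 57.6 to 66.6), and in pairs chosen by pileup in 71.2% (68.8 to 73.4). The latter had larger CTCF ratios. At CTCF fold ratios below 1.1, 1.1 to 1.25 and 1.25 to 1.5, the shares were 62.5%, 60.0% and 62.8% in tandem pairs. In pairs chosen by pileup they were 59.1%, 59.8% and 64.3%, with overlapping intervals. At ratios of 1.5 and above they were 66.0% (52.6 to 77.3, n = 53) and 80.6% (77.6 to 83.3, n = 758), with intervals apart.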

How the data were processed

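The data were CTCF (4 libraries) and Rad21 (3 libraries) ChIP-seq of female mouse liver. Per the study's methods and the submitters' processing notes, the authors aligned the reads with Bowtie2 (mm9), used those with a unique position, called peaks with MACS2, and discarded blacklisted and duplicate-only peaks. Each deposited list holds, per peak, a fold ratio over background, -log10 p and -log10 q values, a score, and the summit's offset. These are pooled values with no read depth per library, and the deposited score was not used further. The members and the gene lists were chosen with earlier results of these data known.

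Pileup and background were solved from the fold and -log10 p of each peak, with a tolerance of 0.01 in -log10 p, which failed for 4 CTCF peaks and 0 Rad21 peaks. The steps were checked on simulated data. Overlap required 1 bp. Genes came from the GENCODE vM1 annotation on NCBIM37, which is the mm9 build. The motif matrix came from bases within 50 bp of 1000 summits, and its threshold from 40996 windows 1000 bp beside peaks. Wilson intervals were used for shares and order-statistic intervals for medians, at 95% (python 3.11.15, numpy 2.4.6, pandas 2.3.3, scipy 1.17.1, pysam 0.24.0). Named pairs were, by rule, the 6 of highest weaker fold, the 3 closest, the 4 of highest summed fold, the 3 of largest ratio, the 3 of highest motif score per arrangement, the 3 most alike in sequence, the pair nearest each listed gene within 10 kb, and the 5 strongest members without Rad21. Sequences were printed for the strongest, the highest-scoring and the most alike pairs, none from chromosome 18. Alternatives changed the fold minimum, the distance, the chromosomes, the strength measure, the overlap, the motif threshold and the gene models, and the use of pileup as strength was chosen after seeing the data.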

Additional observations from a re-analysis of the deposited data

How the results depend on the processing

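Of 86 values recomputed under alternatives, 38 stayed within 1.5 times the count or within the interval of the reported value, and 48 did not. The share of same-direction pairs stayed within its interval in all alternatives but the fold minimum of 15, where 1 pair with a motif at both peaks was left. With a fold minimum of 8 there were 1964 peaks and 987 pairs, with a ratio of stronger to weaker fold of 1.30, Rad21 at 95.7% of peaks and at both peaks of 91.6% of pairs. With a fold minimum of 15 there were 4 peaks in 2 pairs, with a median spacing of 935.5 bp, a ratio of 1.03, Rad21 at 100% of peaks and 100% of pairs, motifs at 75%, the same direction in 100%, a TSS within 1 kb of 50% and intergenic sequence at 75%. A limit of 2 kb gave 622 peaks in 311 pairs, a median spacing of 1304 bp and 59.3% intergenic peaks, and a limit of 5 kb gave 1615 peaks in 812 pairs and a median spacing of 2577.5 bp. With -log10 q as the strength there were 2493 peaks in 1280 pairs, a ratio of 1.40, Rad21 at 95.6% of peaks and 91.2% of pairs, motifs at 79.2%, a TSS within 1 kb of 17.3% and 52.5% intergenic. With pileup as the strength, chosen after seeing the data, there were 3426 peaks in 1799 pairs, a ratio of 1.55, Rad21 at 92.8% of peaks and 85.3% of pairs, motifs at 74.8%, a TSS within 1 kb of 21.3% and 49.8% intergenic. Requiring Rad21 over 50% of the CTCF peak gave 95.5% of peaks and 91.4% of pairs, a Rad21 summit within 100 bp gave 96.1% of peaks, and a Rad21 -log10 q of at least 10 gave 93.0% of peaks and 86.8% of pairs. Motifs were at 93.8% with the 5% threshold, 50.1% with the 0.1% threshold and 86.3% within 50 bp of the summit. A TSS was within 1 kb of 9.35% of members with protein-coding genes only, and within 2.5 kb of 21.4%. The cause of these shifts was not tested. No paired analysis was possible because each list pools its libraries. Depth per library and the spread between mice were not analysed here, so the intervals cover counting error only, and no comparison with the single strong peaks was tested.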

Other observations

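When strength was read as pileup, 140 groups of 3 or more CTCF peaks appeared with each neighbour within 3 kb, where the fold rule gave 0 groups of 3 or more. These groups were chosen after their values were seen and are given as values only. The largest held 8 peaks over 8303 bp at chr12:114454333-114462636 (first to last summit). Their pileups were 194 to 628 fragments and their folds 2.59 to 8.09, so that 0 of the 8 had a fold of at least 10. Of these peaks 5 overlapped a Rad21 peak, and the 3 that had a motif had it on the plus strand.

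Groups of 5 peaks lay in Slc37a1 and Vgll4, which encode a sugar-phosphate exchanger and a cofactor of TEAD transcription factors, in Gm17080 and Slc29a1 near the TSS of Hsp90ab1, and near 1700057K13Rik. In Vgll4, where 3 motifs were on the plus and 1 on the minus strand, the peaks spanned 2950 bp with pileups of 127 to 367 fragments and folds of 2.71 to 8.95, and 2 of 5 overlapped Rad21. In Slc37a1 4 of 5 peaks overlapped Rad21, and all 4 motifs were on the plus strand. In the group near Hsp90ab1 3 of 5 peaks overlapped Rad21, with 2 motifs on the plus and 3 on the minus strand. Near 1700057K13Rik all 5 peaks had a motif, 4 of them on the minus strand, and 2 peaks, which are a tandem pair under the fold rule, had a fold of at least 10.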
